A study of Homo sapiens with 6 samples.

Results

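The 10 genes described here store iron in the cell (FTH1, FTL), bring it in (TFRC, TF, SLC11A2, LCN2), export it and control that export (SLC40A1, HAMP), or sense it (IREB2, ACO1). They were chosen by name, and each matched 1 of the 24000 gene entries of the deposited table. None of the 8 genes that could be tested passed the test for a difference between PC-3 tumors of WCE-treated and of vehicle-treated mice. FTH1, FTL, TFRC, IREB2 and ACO1 had log2 fold changes between −0.10 and 0.08, and LCN2 and SLC40A1 were the most variable of the 8 from tumor to tumor.

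PC-3, an established line of human prostate cancer cells, needs no androgen to grow. The tumors were raised in nude mice, hosts that lack T cells but keep their own myeloid, vascular and stromal cells. RNA was sequenced from 3 tumors of vehicle-treated mice and from 3 tumors of mice given WCE, a standardized extract of the herb Wedelia chinensis, by mouth. The labels state a treatment of 10 weeks for both groups and give no dose and no age of the mice. All 6 tumors come from the same cell line, and the labels do not say whether the tumors of a group shared a cohort, so p-values measure only the spread between these samples.

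Iron enters most cells when transferrin in the blood, encoded by TF, binds the transferrin receptor TFRC and is taken into endosomes, where SLC11A2 (DMT1) carries the released iron into the cytosol. Iron that is not used is kept inside ferritin, a shell built of heavy chains (FTH1) and light chains (FTL), or leaves the cell through ferroportin (SLC40A1), which the liver hormone hepcidin (HAMP) removes from the membrane. IREB2 (IRP2) and ACO1 (IRP1) bind hairpins called iron-responsive elements when iron is scarce. Binding in a 5′ UTR blocks translation of the ferritin chains and ferroportin, whereas binding in the 3′ UTR of TFRC protects its mRNA from decay, so RNA levels can report on control of the latter kind and not of the former.

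The elements are shown because they are what links these genes to the iron sensors. A search of the UTRs of GENCODE protein-coding transcripts looked, on the transcript strand, for the letters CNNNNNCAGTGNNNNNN, in which the loop CAGTGN is flanked by 5 bases on each side, with at most 1 of the 5 positions on either side of the loop unpaired (G with T counted as a pair). In the sequences, written 5′ to 3′ with 30 bases each, capitals mark the loop of 6 bases. Coordinates are on GRCh38. The elements of FTH1, FTL and SLC40A1 lie in the 5′ UTR, and those of TFRC and SLC11A2 lie in the 3′ UTR.
FTH1, chr11:61967573-61967602, minus strand: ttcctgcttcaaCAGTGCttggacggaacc
FTL, chr19:48965335-48965364, plus strand: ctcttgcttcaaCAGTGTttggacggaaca
SLC40A1, chr2:189580660-189580689, minus strand: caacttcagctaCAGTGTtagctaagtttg
TFRC, chr3:196050978-196051007, minus strand: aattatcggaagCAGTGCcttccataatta
TFRC, chr3:196050574-196050603, minus strand: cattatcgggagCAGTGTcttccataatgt
TFRC, chr3:196050509-196050538, minus strand: ctgtatcggagaCAGTGAtctccatatgtt
TFRC, chr3:196050462-196050491, minus strand: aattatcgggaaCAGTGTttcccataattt
SLC11A2, chr12:50988268-50988297, minus strand: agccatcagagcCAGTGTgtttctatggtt
The FTH1 and FTL elements were identical at 26 of 30 bases, and TFRC carried 4 matches. SLC11A2 matched with 1 unpaired position, and its element was present in 5 transcripts. The same letters were found in the UTRs of TF, IREB2 and ACO1, each in 1 transcript, and not in those of LCN2 and HAMP. TF matched with 0 unpaired positions, and IREB2 and ACO1 with 1 each. The elements shown for FTL and SLC40A1 were also in 1 transcript each, so the search alone does not set the shown elements apart. Across 19669 protein-coding genes, 6.01% held a match in a UTR of any length, and in the wider list of iron and heme genes described further on 9 of 70 (12.9%) did. UTRs differ in length between genes, and a match describes letters and not binding.

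Before the values, 1 feature of the libraries has to be stated. Vehicle replicate 3 and WCE replicate 1 were nearly identical: over 1915 entries with a mean of at least 50 FPKM (fragments per kilobase of transcript and per unit of mapped fragments), their median absolute log2 difference was 0.0276, while the other 14 pairings gave 0.0950 to 0.247. The gap between them was no larger than 0.16 (log2) in any of the 8 iron genes tested, with LCN2 showing the widest. All 15805 entries detected in WCE replicate 1 were detected in vehicle replicate 3 too, while any other tumor lacked between 329 and 546 of them. Whether both libraries hold RNA of the same tumor, or reads of the same library, was not tested. If they do, the groups of 3 tumors are not 6 independent samples, and each n = 3 or n = 6 is to be read with this in mind. They carry different treatment labels, so the tested iron genes and the named genes of the wider list with an unadjusted p under 0.05 are also given for the 4 tumors left without this pair. Read counts are not known, and relative depth, taken from the steps between low values, was 25% in WCE replicate 1 and 64.8% to 85.2% in the other 4 tumors, with vehicle replicate 3 set to 100%.

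FPKM is scaled to transcript length, so levels can be set beside each other across genes. Ferritin dominated. FTH1 ranked 43 and FTL 104 of all 24000 entries by mean FPKM, with means over the 6 tumors of 1760 ± 248 and 876 ± 129 FPKM (SD, n = 6). TFRC followed at 101 ± 15.8, LCN2 at 42.4 ± 19.7 and SLC11A2 at 15.7 ± 1.73 FPKM. IREB2 and ACO1 were level with each other at 8.15 ± 0.247 and 8.08 ± 0.961 FPKM, and their ranges overlapped. SLC40A1 was at 0.686 ± 0.512 and TF at 0.0869 ± 0.0700 FPKM, and HAMP was listed at 0 in every tumor. LCN2 and SLC11A2 also overlapped, because LCN2 was below SLC11A2 in 1 of the 6 tumors, and so did SLC40A1 and TF. FTH1, FTL, TFRC and LCN2 kept this order in all 6 tumors. Loci are given below as the table lists them, without a build. The processing notes of the submitters name hg19 and mm10.

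**Figure D1:**
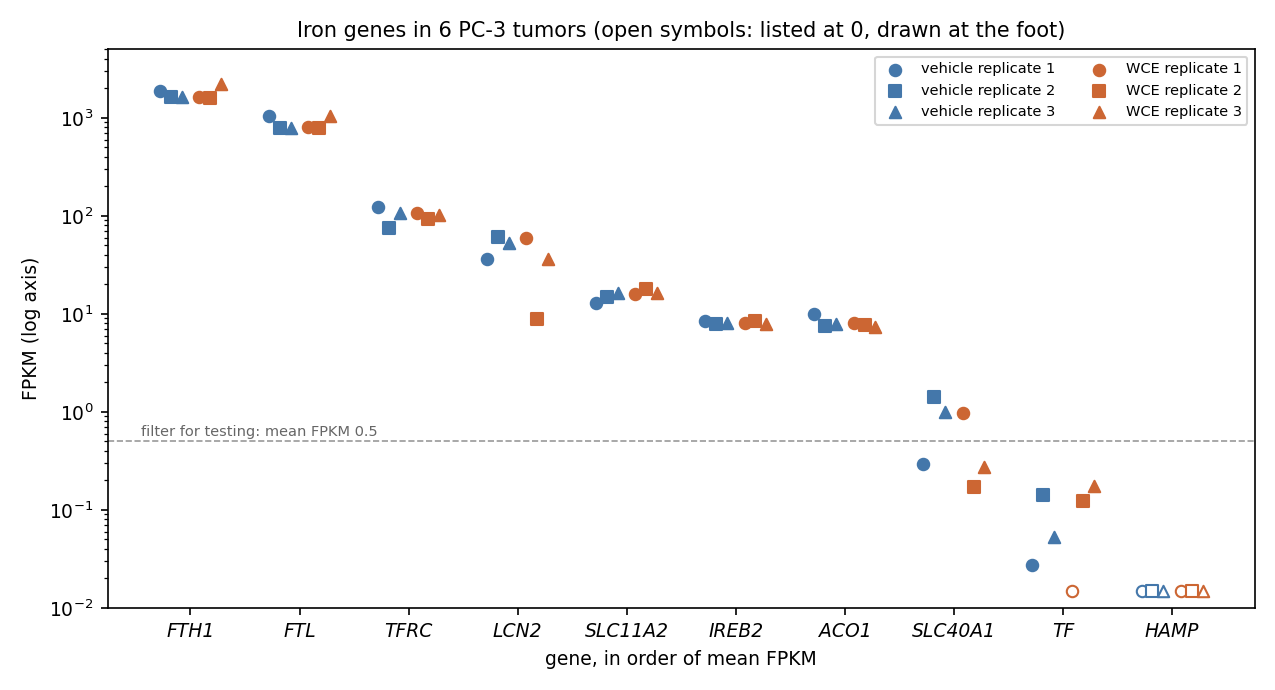
FPKM of the 10 iron genes (log axis) in each of 6 tumors, with vehicle in blue, WCE in orange and the symbol giving the replicate; open symbols at the foot are values listed at 0. Vehicle and WCE symbols lie among each other for each gene, and LCN2 and SLC40A1 show the widest scatter, with LCN2 at 8.85 FPKM in WCE replicate 2.

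FTH1 encodes the ferritin heavy chain, which oxidizes iron as it enters the shell, and is listed on chromosome 11 from 61717356 to 61735132. Its FPKM was 1865, 1633 and 1616 in the vehicle tumors and 1636, 1587 and 2223 in the WCE tumors. WCE replicate 3 was the highest and WCE replicate 2 the lowest of all 6, so the WCE group enclosed the vehicle group. The log2 fold change, on the log2(FPKM + 1) scale used throughout, was 0.08 with a 95% interval from −0.29 to 0.45 (limma, adjusted p = 0.888). Without the nearly identical pair it was 0.11 (adjusted p = 0.814 by limma).

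FTL encodes the light chain, which helps iron crystallize inside the shell, and is listed on chromosome 19 from 49468566 to 49470136. It stood at 1045, 787 and 793 FPKM in vehicle tumors and at 807, 786 and 1040 FPKM in WCE tumors. Vehicle replicate 1 and WCE replicate 3 were high for both ferritin chains, and FTL in the other 4 tumors lay within 786 to 807 FPKM. The group means were 875 ± 147 and 878 ± 141 FPKM (SD, n = 3 each). The log2 fold change was 0.0053 with an interval from −0.38 to 0.39 (limma, adjusted p = 0.994), and it was −0.0046 in the 4 tumors. The light chain was at 56.0%, 48.2% and 49.1% of the heavy chain in vehicle tumors and at 49.3%, 49.5% and 46.8% in WCE tumors. This ratio differed by −0.071 on the log2 scale (two-sided exact permutation test, p = 0.6, where 0.1 is the smallest p possible with 3 tumors against 3), and by −0.11 in the 4 tumors.

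Ferritin genes have many processed pseudogene copies, whose reads could be shared with FTH1 or FTL. The table lists 2 of them by name, beside the paralogs FTMT and FTHL17, which were at 0 in every tumor. FTLP10 was at 0 in every tumor and FTH1P3 was between 0.124 and 0.585 FPKM, far below its parent. The listed locus of FTH1 is shared with the entry for BEST1, a neighboring gene.

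TFRC encodes the receptor through which dividing cells take up transferrin iron, and is listed on chromosome 3 from 195776155 to 195809032. Its values were 123, 75.5 and 107 FPKM in vehicle tumors and 106, 93.1 and 102 FPKM in WCE tumors. The vehicle group held both the highest and the lowest tumor. The means of 102 ± 24.0 and 100.3 ± 6.71 FPKM (SD, n = 3 each) gave a log2 fold change of 0.0052 with an interval from −0.40 to 0.41 (limma, adjusted p = 0.994), and of 0.014 in the 4 tumors. Relative to FTH1, TFRC was at 6.58%, 4.62% and 6.63% in vehicle and 6.50%, 5.86% and 4.57% in WCE tumors. The log2 difference of this uptake-to-storage ratio was −0.071 (two-sided exact permutation test, p = 0.5), and its sign changed when vehicle replicate 1, vehicle replicate 3 or WCE replicate 3 was left out. In the 4 tumors it was −0.092.

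SLC11A2 encodes the transporter that moves iron out of the endosome, and is listed on chromosome 12 from 51373566 to 51422058. It was at 12.8, 14.9 and 16.3 FPKM in vehicle tumors and at 16.1, 18.0 and 16.3 FPKM in WCE tumors. The groups overlapped through vehicle replicate 3, which was above WCE replicates 1 and 3. The log2 fold change of 0.18 had an interval from −0.08 to 0.45, and its adjusted p of 0.638 by limma was the lowest among the 8 tested genes. In the 4 tumors it was 0.29 (limma, unadjusted p = 0.0745 and adjusted p = 0.314). The table gives 4 start sites for this gene under a single value, so forms with and without the iron-responsive element are not separated.

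TF, the gene of the blood carrier transferrin, is made mainly by the liver and is listed on chromosome 3 from 133464977 to 133497850. It was at 0.0273, 0.140 and 0.0530 FPKM in vehicle tumors and at 0, 0.124 and 0.176 FPKM in WCE tumors. Scaled by relative depth, its values lay on whole steps (within 0.1 of a step) of 1, 6 and 3 in vehicle tumors and 0, 6 and 8 in WCE tumors. If a step is a single read, TF rests on at most 8 reads in a tumor, so a small difference could not be told from counting error at this depth. TF did not reach the mean of 0.5 FPKM required for testing.

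LCN2 encodes lipocalin 2, a secreted protein that binds bacterial siderophores and with them iron, and is listed on chromosome 9 from 130911732 to 130915734. It was at 36.4, 61.0 and 52.8 FPKM in vehicle tumors and at 59.3, 8.85 and 35.9 FPKM in WCE tumors. WCE replicate 2 stood far below the other 5 tumors, whereas WCE replicate 1, of the nearly identical pair, was higher than 2 of the 3 vehicle tumors. The log2 fold change was −0.84 with an interval from −2.22 to 0.55 (limma, unadjusted p = 0.199 and adjusted p = 0.662). It rested on single libraries, since it was −0.084 without WCE replicate 2 and −1.39 without WCE replicate 1, where the unadjusted p by limma was 0.0324 and the adjusted p 0.284. In the 4 tumors it was −1.34 (limma, adjusted p = 0.336). LCN2 is also a granule gene of neutrophils. S100A8, a gene of neutrophils and epithelia, was at 36.5 FPKM in WCE replicate 2 and at 23.2 FPKM in vehicle replicate 1. The other 4 tumors were at 102 to 255 FPKM. S100A8 was at 124 FPKM in WCE replicate 3, whose LCN2 was close to that of vehicle replicate 1. In the human entries read here, the neutrophil genes MPO and ELANE did not exceed 0.0234 and 0.0763 FPKM, and CSF3R was at 0 in every tumor. The part of neutrophils in the LCN2 values was not tested.

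SLC40A1 encodes ferroportin, the exporter of iron from vertebrate cells, and is listed on chromosome 2 from 190425316 to 190445537. It was at 0.290, 1.42 and 0.985 FPKM in vehicle tumors and at 0.983, 0.170 and 0.271 FPKM in WCE tumors. Vehicle replicate 1 and WCE replicates 2 and 3 were low, and the other 3 tumors were high, so both groups held tumors of each kind. The only high WCE tumor was replicate 1, of the nearly identical pair, and without this pair the groups were separated. Values fell on whole steps here too (within 0.1 of a step), of 13, 74 and 68 in vehicle and 17, 10 and 15 in WCE tumors, where the 17 steps of WCE replicate 1 reflect its lower depth. The log2 fold change was −0.36 with an interval from −1.03 to 0.31 (limma, adjusted p = 0.688), and −0.54 in the 4 tumors (limma, adjusted p = 0.412). The pseudocount of 1 exceeds most of these values and shrinks the difference, which was −0.86 with a pseudocount of 0.1 (limma, adjusted p = 0.686). It was −0.61 without vehicle replicate 1 and −0.16 without vehicle replicate 2.

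HAMP, the gene of hepcidin, listed on chromosome 19 from 35773410 to 35776045, was at 0 in all 6 tumors. It was not tested, and no fold change can be given.

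IREB2, listed on chromosome 15 from 78730518 to 78793798, encodes the sensor that is degraded when iron is plentiful, and its RNA was among the least variable of the table. It was at 8.47, 7.94 and 8.14 FPKM in vehicle tumors and at 7.99, 8.43 and 7.92 FPKM in WCE tumors, so that the highest tumor was 1.07 times the lowest. The log2 fold change was −0.01 with an interval from −0.22 to 0.20 (limma, adjusted p = 0.977). ACO1, whose protein is an aconitase when it carries an iron-sulfur cluster, is listed on chromosome 9 from 32384601 to 32450832. It was at 9.98, 7.42 and 7.88 FPKM in vehicle tumors and at 8.06, 7.75 and 7.42 FPKM in WCE tumors. Vehicle replicate 1 stood above the other 5, which lay within 7.42 to 8.06 FPKM. Its log2 fold change was −0.10 with an interval from −0.39 to 0.19 (limma, adjusted p = 0.801). In the 4 tumors the log2 fold change was −0.0038 for IREB2 and −0.16 for ACO1. The ratio of IREB2 to ACO1 was 84.9%, 106.9% and 103% in vehicle and 99.0%, 108.8% and 106.8% in WCE tumors, a log2 difference of 0.099 (two-sided exact permutation test, p = 0.6). Without vehicle replicate 1 that difference was −0.0036, and in the 4 tumors it was 0.18.

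**Figure D2:**
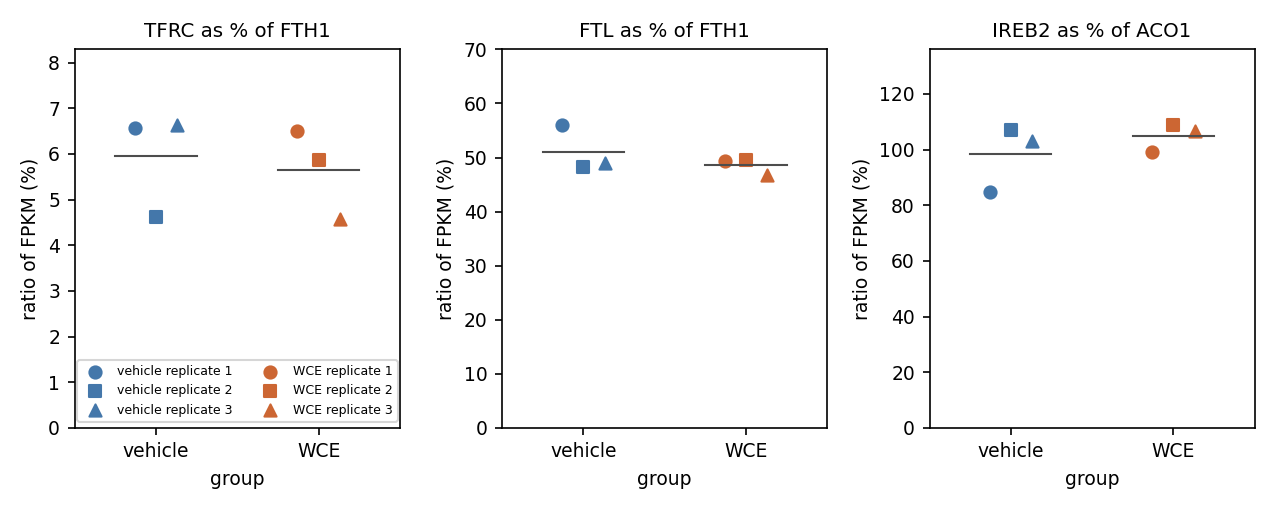
Within-tumor ratios of FPKM, in percent, for TFRC to FTH1, FTL to FTH1 and IREB2 to ACO1, with 1 symbol per tumor, the replicate given by the symbol and the group mean by a line. The groups overlap in each panel, and vehicle replicate 1 has the highest FTL to FTH1 ratio (56.0%) and the lowest IREB2 to ACO1 ratio (84.9%).

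Of the 10 genes, 8 reached the mean of 0.5 FPKM and were tested. By limma, 0 of 8 had an adjusted p under 0.05, where 0.00753% of 13287 entries did, and 0 of 8 had an unadjusted p under 0.05, where 7.1% did. In 0 of 8 were the groups separated, that is, with all 3 WCE tumors on the same side of all 3 vehicle tumors, against 12.8% of entries. The median log2 fold change was −0.0028 over the 8 genes and −0.0063 over all entries, with 4 genes above 0 and 4 below. In the 4 tumors, 0 of 8 had an adjusted p under 0.05 by limma (0.0376% of entries) and 0 of 8 an unadjusted one (18.4% of entries), while SLC11A2 was separated as higher (25.7% of entries) and LCN2 and SLC40A1 as lower (27.8% of entries) in WCE tumors. That is 3 of 8, where 53.5% of entries were separated in either direction. 

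**Figure D3:**
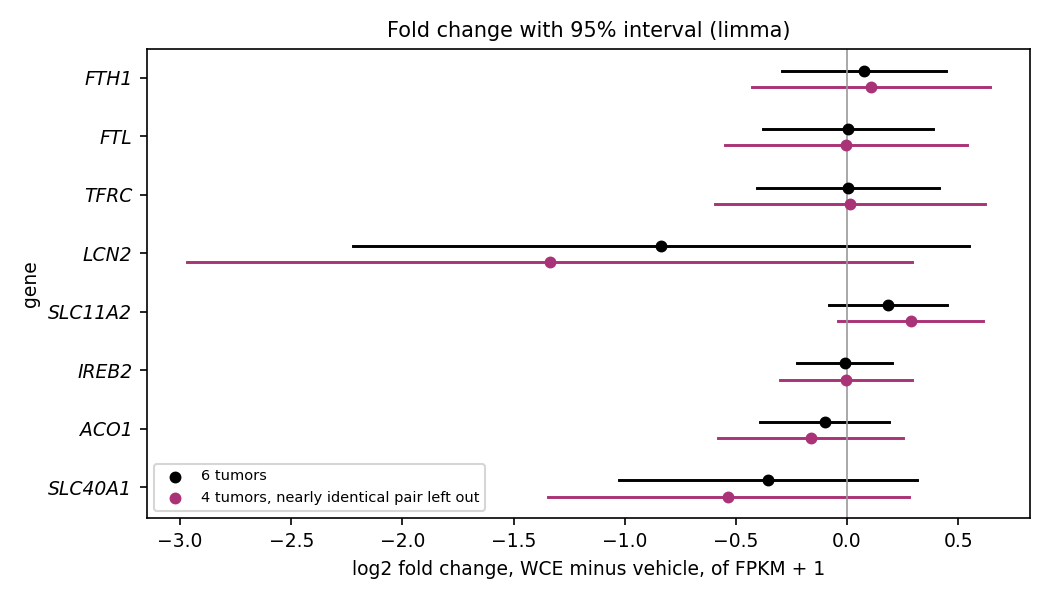
Log2 fold change of FPKM + 1, WCE minus vehicle, with its 95% interval by limma for the 8 tested iron genes, for all 6 tumors (black) and for the 4 tumors without the nearly identical pair (purple). Each interval includes 0, from the narrowest for IREB2 (−0.22 to 0.20) to the widest for LCN2 (−2.22 to 0.55) with 6 tumors.

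The spread between tumors set the genes apart from each other. The SD of log2 FPKM over the 6 tumors was 0.044 for IREB2, with only 0.432% of the tested entries above 0 in every tumor showing a smaller spread. It was 0.19 for FTH1, 0.20 for FTL, 0.24 for TFRC, 0.16 for SLC11A2 and 0.16 for ACO1, close to the median of 0.20 over those entries. LCN2 and SLC40A1 had SDs of 1.05 and 1.26, larger than 98.7% and 99.3% of entries, with highest tumors 6.90 and 8.35 times their lowest. 

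Other genes of iron and heme handling were taken from a list of 70 genes, of which 69 were in the table and 58 were tested. By limma, 0 of 58 had an adjusted p under 0.05. An unadjusted p under 0.05 was found for 13 of 58, 7 higher and 6 lower in WCE tumors, which is 22.4% against 7.1% of all entries (3.78% higher and 3.33% lower). In the 4 tumors it was 22 of 58, or 37.9% where all entries had 18.4%. The count was 4 without vehicle replicate 1, 5 without vehicle replicate 2, 4 without WCE replicate 2 and 3 without WCE replicate 3. The count over all 13287 entries went from 944 to 423, 347, 235 and 219 in the same fits. Without vehicle replicate 3 and without WCE replicate 1 the list counted 15 and 17, and all entries 1771 and 2033. The median log2 fold change of the list was −0.016. Each of the 13 had an adjusted p of 0.623 by limma, so none of the differences that follow passed the test over all entries. The list was written with earlier results of these data known, and its share is a description.

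Of the 3 oxidases of iron export, HEPH had an unadjusted p under 0.05. HEPH encodes hephaestin, the copper oxidase that works beside ferroportin at the membrane. It was at 7.90, 4.64 and 3.21 FPKM in vehicle and at 3.22, 1.13 and 1.47 FPKM in WCE tumors, and the groups overlapped only through the nearly identical pair. Its log2 fold change was −1.08 (SE 0.33, unadjusted p = 0.0123 by limma), and −1.63 in the 4 tumors. CP, the related plasma oxidase ceruloplasmin, was at 7.53 to 31.7 FPKM in vehicle and 10.1 to 30.3 FPKM in WCE tumors. Its locus is shared by 2 entries and its log2 fold change was −0.15 (SE 0.56). SLC22A17, described as a receptor for the LCN2 protein, was at 1.67, 1.32 and 2.20 FPKM in vehicle and 1.97, 3.22 and 3.96 FPKM in WCE tumors. Its log2 fold change was 0.55 (SE 0.21, unadjusted p = 0.0346 by limma), and 0.88 in the 4 tumors.

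Among genes of uptake and reduction, limma gave 2 of 10 an unadjusted p under 0.05, SLC22A17 and STEAP1, the latter named after its values were seen, with log2 fold changes of 0.55 and −0.38, the latter −0.59 in the 4 tumors. STEAP3, the endosomal ferrireductase that prepares iron for SLC11A2, stood at 13.6 ± 2.01 and 16.1 ± 1.32 FPKM (SD, n = 3 each) in vehicle and WCE tumors. Its groups were separated with a log2 fold change of 0.24 (limma, unadjusted p = 0.108). The ferrireductase CYBRD1 (0.24) and the transporter SLC39A14 (−0.09) had overlapping groups. TFR2, the second transferrin receptor, stayed at or under 0.0807 FPKM and was not tested.

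Of the storage partners, limma gave 0 of 5 an unadjusted p under 0.05. NCOA4, the receptor that delivers ferritin to lysosomes, was at 38.7 ± 2.60 and 34.7 ± 3.05 FPKM in vehicle and WCE tumors (SD, n = 3 each), and the iron chaperones PCBP1 and PCBP2 had log2 fold changes of −0.16 and 0.08. In the upstream control of hepcidin, HFE and TMPRSS6 were below the filter, at no more than 0.422 and 0.143 FPKM. FBXL5, which marks IREB2 protein for degradation when iron is plentiful, had a log2 fold change of −0.10. EPAS1, which carries a known iron-responsive element in its 5′ UTR and encodes HIF2α, had −0.24. Of the 5 sensing genes only CDC42BPA, whose mRNA is also described to carry an element, had an unadjusted p under 0.05 by limma, with separated groups and a log2 fold change of 0.29 (SE 0.12), and of 0.43 in the 4 tumors. The letters searched for above were not found in the UTRs of EPAS1 and CDC42BPA.

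Mitochondrial iron genes and heme genes made up most of the remainder. Of 14 mitochondrial genes, limma gave 4 an unadjusted p under 0.05, and these 4 were lower in WCE tumors. That is 28.6%, where 3.33% of all entries were lower at this threshold. In the 4 tumors 6 of 14 had such a p by limma, 5 lower and 1 higher in WCE tumors. That is 42.9%, where 18.4% of all entries had one in either direction. HSCB, a cochaperone of iron-sulfur cluster assembly, was at 15.1, 18.9 and 13.7 FPKM in vehicle and 11.3, 12.4 and 9.73 FPKM in WCE tumors. Its groups were separated, with a log2 fold change of −0.47 (SE 0.14). GLRX5, which passes clusters on, had separated groups as well and a log2 fold change of −0.34. NFU1, which also works in cluster assembly and was named after its values were seen, had −0.31. Without the nearly identical pair these values were −0.58 for HSCB and −0.49 for both GLRX5 and NFU1. The mitochondrial iron importer SLC25A37 was at 14.3 ± 1.39 and 14.2 ± 1.01 FPKM (SD, n = 3 each).

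In heme synthesis, limma gave 3 of 8 genes an unadjusted p under 0.05, and these 3 were higher in WCE tumors. That is 37.5%, where 3.78% of all entries were higher at this threshold. UROD, a later enzyme of the pathway, was at 52.9, 68.3 and 65.8 FPKM in vehicle and 73.8, 91.4 and 80.2 FPKM in WCE tumors, with separated groups and a log2 fold change of 0.39 (SE 0.13). ALAS1, the rate-limiting enzyme outside red cells, had a log2 fold change of 0.29 and ALAD had 0.28. HMOX1, which breaks heme down and releases its iron, was at 15.5, 14.1 and 20.1 FPKM in vehicle and 22.3, 18.9 and 29.1 FPKM in WCE tumors. Its groups overlapped, with a log2 fold change of 0.47 (SE 0.18, unadjusted p = 0.0353 by limma). LRP1, which takes up heme bound to hemopexin and was named after its values were seen, shares its locus with another entry and had 0.74, and the heme exporter FLVCR1 had 0.13. Without the pair the log2 fold change was 0.50 for UROD, 0.44 for ALAS1, 0.36 for ALAD, 0.63 for HMOX1 and 1.11 for LRP1. The lowest adjusted p of the list in the 4 tumors was 0.171 by limma.

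**Figure D4:**
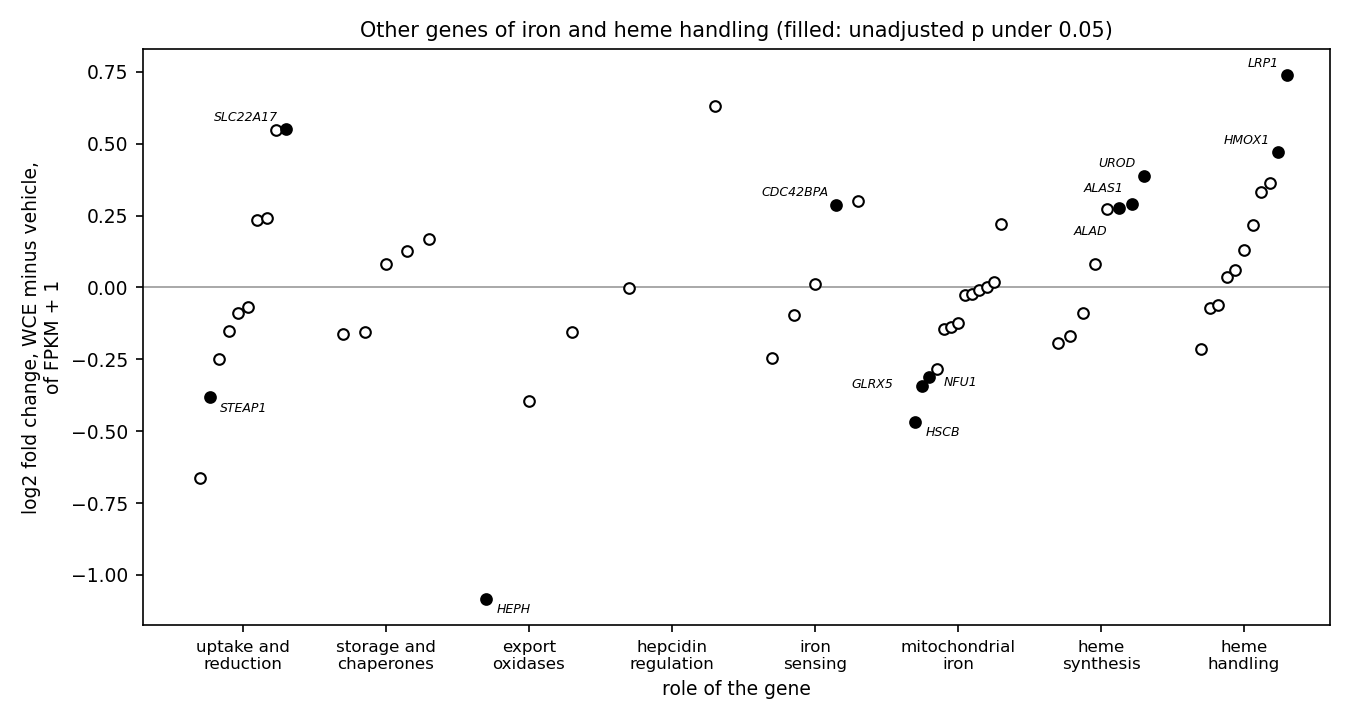
Log2 fold change of FPKM + 1, WCE minus vehicle, for 57 other genes of iron and heme handling grouped by role, each circle a gene and filled circles those with an unadjusted p under 0.05 by limma. The 3 filled circles among mitochondrial genes lie below 0 and the 3 among heme synthesis genes above 0, and HEPH lies lowest at −1.08.

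The tumor cells are human and the cells of the host are mouse, while marker genes were read from the same human entries. Host cells are therefore seen only as far as mouse reads were counted to human genes, and a low value does not show that such cells were absent. The epithelial markers KRT8, KRT18 and KRT19 were at or above 192 FPKM in every tumor. The summed epithelial list was 1205 to 1447 FPKM in vehicle and 1146 to 1406 FPKM in WCE tumors. EPCAM and CDH1 were lower in WCE tumors at an unadjusted p under 0.05 by limma, with log2 fold changes of −0.73 and −0.47. In the 4 tumors these were −1.08 and −0.68. KRT8, KRT18 and KRT19 had 0.05, 0.10 and −0.01, and 0.07, 0.14 and −0.02 in the 4 tumors. Of 17 myeloid entries 13 had a mean under 1 FPKM and 4 were at 0 in every tumor, whereas CD68 was at 25.3 to 43.9 FPKM and ITGB2 at 5.85 to 9.56 FPKM. CD68, a lysosomal gene rich in macrophages, had a log2 fold change of 0.37, and of 0.57 in the 4 tumors (limma, unadjusted p = 0.00712 and adjusted p = 0.182). Among the other tested myeloid markers, ITGB2 went the other way at −0.18, and S100A8 and S100A9 had 0.30 and 0.49. In the 4 tumors these values were −0.24, 0.45 and 0.73. The summed myeloid list, mostly S100A8 and S100A9, ran from 373 to 1606 FPKM in vehicle and from 589 to 1603 FPKM in WCE tumors. The erythroid list was at 4.59 to 7.05 FPKM in vehicle and 5.67 to 7.29 FPKM in WCE tumors, mostly EPOR, with 5 of 9 entries at 0. The hepatocyte list, relevant to TF and HAMP, was at 4.92 to 34.9 and 10.7 to 32.9 FPKM, with SERPINA1 the highest entry in every tumor and TTR at 0. Endothelial markers summed to 1.31 to 4.02 and 3.75 to 9.12 FPKM. KDR and TIE1 were higher at an unadjusted p under 0.05 by limma, with log2 fold changes of 1.14 and 0.77. In the 4 tumors these were 1.69 and 1.15. KDR was at 5.12 FPKM in WCE replicate 3 and at or under 1.59 FPKM elsewhere. PECAM1 had 0.14 (limma, unadjusted p = 0.613), and 0.24 in the 4 tumors. CDH5, VWF, TEK and EMCN were below the filter. Fibroblast markers summed to 55.1 to 62.8 and 46.6 to 76.8 FPKM. LUM, a matrix gene of fibroblasts, was lower with a log2 fold change of −0.85 (limma, unadjusted p = 0.0308), and of −1.31 in the 4 tumors. PDGFRA, on the same list, went the other way at 0.93 (limma, unadjusted p = 0.203), and at 1.39 in the 4 tumors. The part of other cells in the iron gene values was not tested, and in bulk tumors fewer cells of a type and less RNA per cell cannot be told apart.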

How the data were processed

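Stranded libraries of polyadenylated RNA from 6 PC-3 tumors were analysed, 3 per group. The authors deposited 1 table of FPKM values per gene entry, laid out as Cufflinks writes it. The submitters' processing notes name TopHat2 2.0.13, Cufflinks and the builds hg19 and mm10, without their roles. The annotation used, and whether tumors were scaled to each other, are not given in the sources used here.

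Values were changed to log2(FPKM + 1), and the 13287 of 24000 entries with a mean of at least 0.5 FPKM were tested in R 4.3.3 with limma 3.58.1 (mean-variance trend, two-sided, Benjamini-Hochberg adjustment, threshold 0.05). Ratios of FPKM were compared by exact permutation. With 200 of 13287 simulated entries changed by a log2 value of 1, this comparison recovered 88.5% and called 11 unchanged entries. The simulated tumors were drawn independently of each other, without a nearly identical pair. The share recovered therefore does not carry over to the real tumors. Read totals are not known, and intervals for counting error were not computed. Iron-responsive elements were read from GENCODE transcripts (GRCh38), with the search tested on planted sequences.

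The 10 genes and the wider list were chosen with earlier results of these data known. The named genes were the 10, a fixed set of 19 from the wider list, and the genes of that list with an unadjusted p under 0.05 and separated groups. The values of 1 gene of the list are counted but not reported here. STEAP1, NFU1 and LRP1 were named after their values were seen. Python 3.11.15 was used for tables and plots. Alternatives were the pseudocount, filter, scaling, trend, moderation, tumor weights, a replicate block and each tumor, or the nearly identical pair, left out.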

Additional observations from a re-analysis of the deposited data

How the results depend on the processing

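Of the 8 tested iron genes, 0 had an adjusted p under 0.05 by limma in each setting run. At an unadjusted p the count was 0 as designed, 1 with limma array weights (SLC40A1, −0.68) and 0 to 1 with single tumors left out (LCN2 without WCE replicate 1). The wider list counted 13 at an unadjusted p, against 7 with no filter on low values, 3 with the unmoderated two-sample test, 24 with array weights, 22 without the nearly identical pair and 3 to 17 with 1 tumor left out. Over all entries, 944 had an unadjusted p under 0.05, against 593 with the unmoderated test, 3201 with array weights, 2449 without the pair and 219 to 2033 with 1 tumor left out (1771 without vehicle replicate 3, 2033 without WCE replicate 1). The adjusted count of 1 was 0 with no filter or the unmoderated test, 5 without the pair and 1 to 7 with 1 tumor left out. For these counts the cause was not tested.

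With 1 tumor left out, the log2 fold change ran from −0.078 to 0.17 for FTH1, −0.12 to 0.14 for FTL, −0.19 to 0.15 for TFRC, −0.036 to 0.012 for IREB2, −0.18 to 0.015 for ACO1, −0.78 to 0.21 for CP and −0.049 to 0.065 for SLC25A37. The ratio of TFRC to FTH1 ran from −0.24 to 0.074 and that of IREB2 to ACO1 from −0.0036 to 0.16. Without the pair, FTL was −0.0046 and SLC25A37 0.0078, and upper-quartile scaling gave 0.0010 for SLC25A37. All other directions were kept for the 32 named genes that were tested.

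With a replicate block, limma counted 13 genes of the wider list and 0 of the iron genes at an unadjusted p under 0.05. They are not the same 13 genes, since CDC42BPA, ALAD and STEAP1 lost that call. The correlations of deviations from the group means were −0.24, 0.16 and −0.093 for tumors of the same number. For tumors of different numbers they ran from −0.33 to 0.36, with the highest in the nearly identical pair. With 3 tumors per group, these values cannot show whether the numbers pair the tumors. Values under about 0.5 FPKM, as for TF and HAMP, are limited by depth.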

Other observations

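LCN2, SLC40A1, CP, SERPINA1 and SLC39A8 were each higher in vehicle replicates 2 and 3 and WCE replicate 1 than in the other 3 tumors, so each held high and low tumors in both treatment groups. This pattern was picked out after the values were seen and was not tested. KRT19, ITGB2, EPAS1 and FBXL5 showed the same split, so it is not particular to the genes named first. KRT19 was at 561 to 652 FPKM in the higher tumors and at 407, 443 and 498 FPKM in the others. The share of all entries with this split was not counted. CP was at 29.2 to 31.7 FPKM in the higher tumors and at 7.53, 10.1 and 16.6 FPKM in vehicle replicate 1, WCE replicate 2 and WCE replicate 3. SERPINA1, a secreted protease inhibitor, was at 18.7 to 32.7 FPKM in the former and at 3.12, 4.95 and 13.4 FPKM in the latter. SLC39A8, a metal transporter, was at 29.2 to 33.0 FPKM against 17.8, 15.8 and 22.5 FPKM. The nearly identical libraries are both among the higher tumors, and WCE replicate 1 is the only WCE tumor among them.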
